A study of Mus musculus with 24 samples.

Results

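The collagen, laminin and integrin genes of mouse liver organoids were taken by gene symbol. These were every collagen chain (Col, a type number, a, a chain number) and every laminin chain (Lama, Lamb or Lamc with a number). Every symbol that opens with Itga or Itgb was also taken, other than those that open with Itgb1bp or Itgbl. The rule found 83 genes among the 37818 symbols of the series, namely 44 collagens, 11 laminins and 28 symbols of the integrin form. One of the 28, Itgb3bp, encodes a nuclear protein of the centromere and is no integrin subunit, so integrins were counted over the other 27. All 83 were listed in the table with primary hepatocytes and hepatocyte organoids, 82 in the table of cholangiocyte organoids and 74 in the Smart-Seq table.

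The 24 libraries came from the livers of wild-type BALB/c mice aged 6 to 8 weeks, and the study followed whether organoids keep the expression of their cell of origin over passages. One table held primary hepatocytes (Pri-Hep), isolated on a Percoll gradient as the fraction negative for EpCAM, a surface protein of bile duct cells, and hepatocyte organoids grown from that fraction (Hep-Orgs) at passages P1, P5 and P10, with 3 libraries in each of the 4 groups. A second table held cholangiocyte organoids (Cho-Orgs), grown from EpCAM-positive cells, with 3 libraries each for P0, P5 and P10. The last table held 3 Smart-Seq libraries, 1 each from Hep-Orgs at P0 picked by shape as grape-like, intermediate or round-like. All organoids grew in Matrigel, a basement membrane extract that itself supplies laminin and collagen IV protein from outside the cells, which an mRNA measurement does not count. Hep-Orgs of the bulk libraries were kept in hepatocyte medium with DAPT, which blocks Notch signalling, and the glucocorticoid dexamethasone, whereas the Smart-Seq organoids were grown before these 2 agents were added. Both media held the TGF-β receptor inhibitor A83-01, and the Cho-Orgs medium also held Forskolin.

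Epithelial cells rest on a basement membrane, a sheet in which a network of collagen IV is laid over a network of laminins. A laminin is a trimer of an α, a β and a γ chain, such as laminin-511, which joins the chains of Lama5, Lamb1 and Lamc1. Integrins are receptors made of an α and a β subunit that tie the cell to this sheet, with α3β1, α6β1, α7β1 and α6β4 reading laminins, α1β1 and α2β1 reading collagens, and αv and α5 integrins reading the RGD motif of fibronectin, vitronectin and latent TGF-β. In the liver the bile ducts rest on a basement membrane, while hepatocytes face the space of Disse, which lacks a continuous one. The fibrillar collagens I, III and V of scar tissue come mostly from hepatic stellate cells and portal fibroblasts.

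Levels were given by the authors as FPKM, fragments scaled to transcript length and sequencing depth, so they could be compared between genes of different length. The tables were normalized separately, and levels set across them below are side by side only, with no test. Pri-Hep and Hep-Orgs libraries held 14068906 to 27160365 gene fragments, Cho-Orgs about 37600000 to 39920000 and the Smart-Seq libraries about 40000000 to 40480000. The 12 libraries of the first table were alike across their labels. Over 12018 genes, the chi-square of 2 libraries per degree of freedom had a median of 2.22 (range 1.93 to 3.14) for 12 pairs of the same group and 2.54 (range 1.82 to 4.59) for 54 pairs of different groups, where 1 would be sampling noise alone. The libraries labelled Pri-Hep also went against their label, since Epcam stood at 269 ± 5.4 FPKM and the bile duct keratin Krt19 at 237 ± 6.66 FPKM, above albumin (Alb) at 112 ± 7.99 FPKM (SD, n = 3), and 7 cholangiocyte markers summed to 670.3 to 680.4 FPKM against 559.9 to 595 for 8 hepatocyte markers. The 9 Hep-Orgs libraries went against their label likewise, with group means of Alb from 109 to 115 FPKM and of Epcam from 266 to 278 FPKM, and in all 12 libraries the cholangiocyte sum (667 to 695 FPKM) was above the hepatocyte sum (559.9 to 622 FPKM). Cho-Orgs P0 libraries held 4994 ± 406 FPKM of Alb. In all of these samples, a lower level through fewer cells of a type cannot be told apart from less RNA per cell. The study describes the 3 libraries of a bulk group both as 3 mice and as separate cultures, so the p-values measure the spread between these libraries.

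Across all groups, the collagen sum was highest in the grape-like library, and the laminin and integrin sums were highest in Cho-Orgs at P10. The FPKM of the 43 collagens of the Cho-Orgs table summed to 95.8 to 121 at P0, 311 to 339.6 at P5 and 119 to 124 at P10. In the first table the collagen sum was 86.4 to 94.7 FPKM over all 12 libraries. The grape-like library held 1373 FPKM, the intermediate 369 and the round-like 433. For the 11 laminins, the sum in Cho-Orgs was 169 to 184 FPKM at P0, 294 to 304 at P5 and 327 to 345 at P10, the 3 groups without overlap, against 105 to 149.6 FPKM in the Smart-Seq libraries. The laminin sum of the first table was 201.4 to 214.6 FPKM. The integrins summed to 321 ± 25.2 FPKM at P0, 439.5 ± 5.2 at P5 and 529.8 ± 10.6 at P10 of Cho-Orgs (SD, n = 3). Integrin sums were 364 to 370.7 FPKM in the first table and 316.8 to 465.6 FPKM in the Smart-Seq libraries. Most collagens of the bulk libraries were at low levels. Of 43 collagens, 35 stayed below 1 FPKM in every Cho-Orgs library, as did 38 of 44 in every Pri-Hep and Hep-Orgs library. In the Smart-Seq libraries 16 of 38 did. Among integrins, 15 of 27, 14 of 27 and 3 of 24 were below 1 FPKM throughout the same tables, and among the 11 laminins 3, 4 and 1.

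**Figure D1:**
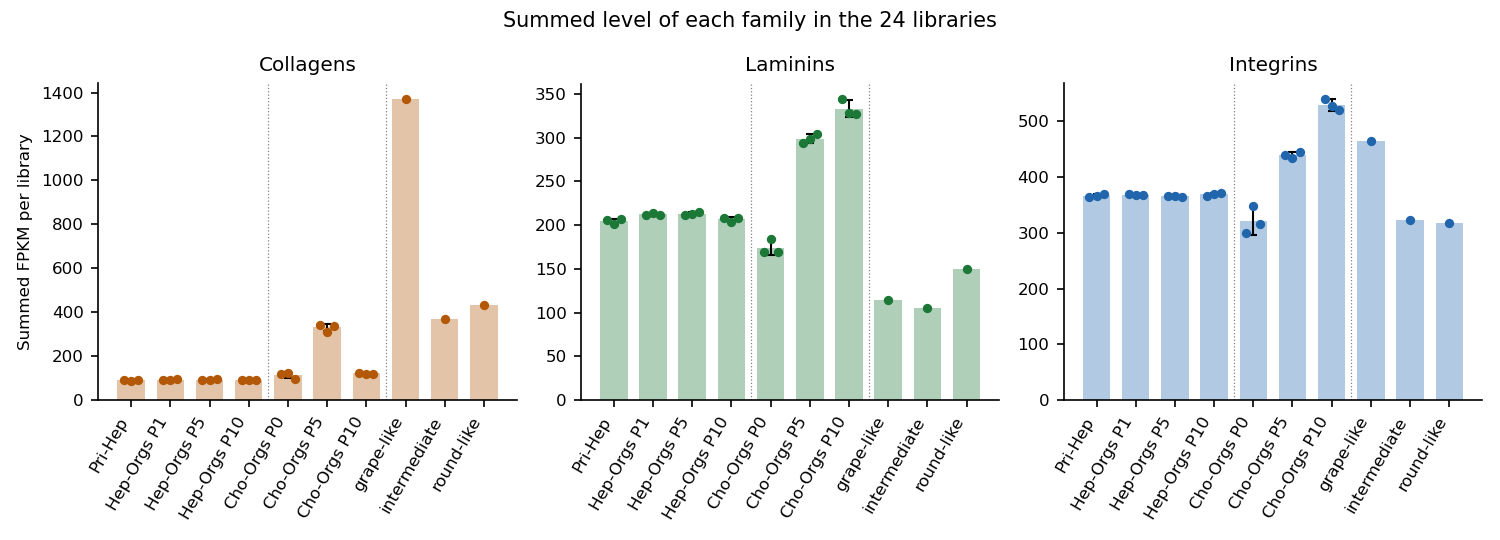
Summed FPKM of the collagens, laminins and integrins in each group, on linear axes from 0. Bars are means, points are libraries and error bars are SD where a group has 3 libraries; dotted lines separate the 3 tables, which were normalized separately. The collagen sum of the grape-like library stands above all others, and the laminin and integrin sums of Cho-Orgs are lowest at P0 and highest at P10.

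In Cho-Orgs, the question was how far expression moved from P0 to P5 and P10. Of the family genes, 7 collagens, 8 laminins and 11 integrins reached 1 FPKM in at least 3 of the 9 libraries and were tested together with all 11593 genes that did. Differences were tested with limma on log2(FPKM + 1), two-sided, with Benjamini-Hochberg adjustment over all genes tested, and a gene was called at an adjusted p under 0.05. On this scale the change of a low gene is understated. From P0 to P5, 5 collagens rose and 1 fell of 7, with a median log2 fold change of 0.68, 6 laminins rose and 1 fell of 8 (median 0.67), and 8 integrins rose and 2 fell of 11 (median 0.46). Of all genes tested, 56.6% were called in this comparison (34% higher and 22.6% lower), with a median of 0.06. Higher calls made up 60.04% of these, and 48.4% when libraries were scaled by median-ratio size factors instead, with no called member reversed. From P5 to P10, 2 collagens rose and 4 fell (median -0.41), and 2 laminins rose and 4 fell (median -0.23). Of the integrins, 6 rose and 3 fell (median 0.40). Of all genes, 61.5% were called (31% higher, 30.5% lower, median 0.01), and the families were not tested against each other. Calls were thus the common state of genes in these libraries, and the share called among the families is to be read against these percentages.

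Joining both steps, 9 members rose at each, among them the basement membrane genes Col18a1 and Lama5, the minor fibrillar collagen Col11a2, and the integrins Itga2, Itga3, Itga7, Itgb4 and Itgb6. Another 8 rose to P5 and then fell, namely Col4a1, Col4a2, Col20a1, Lama3, Lamb2, Lamb3, Itga6 and Itgb1. Col16a1, Lamb1 and Itga5 fell at both steps, and Itgb5 fell and then rose. Itgav and Lamc1 rose to P5 with no call afterwards. Col4a5, Lama4 and Itga1 were called at neither step. Of all genes tested, 56.6% were called from P0 to P5 and 61.5% from P5 to P10. The share of all genes with each joint pattern was not computed, so these counts are not read as a trait of the members.

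**Figure D2:**
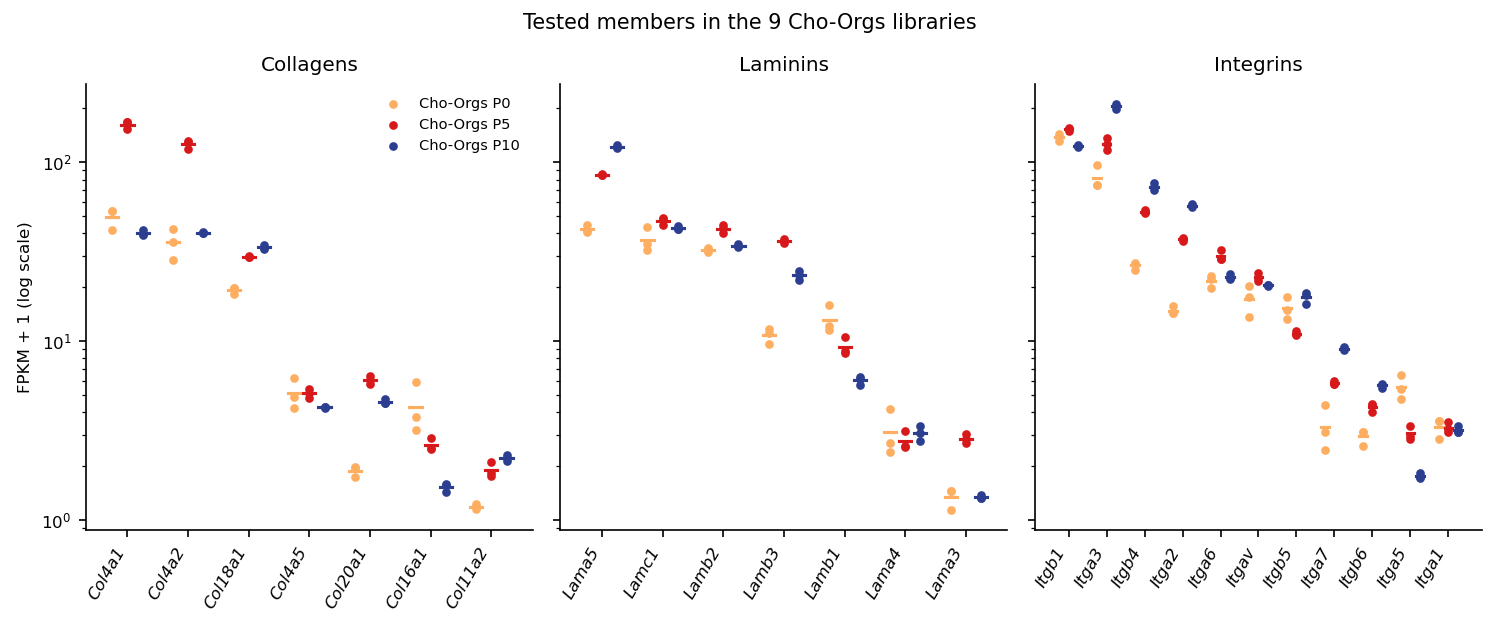
FPKM of collagens, laminins and integrins tested in Cho-Orgs at P0, P5 and P10, 3 libraries a group, as FPKM + 1 on a log axis. Points are libraries and short bars are group means; Col4a1 and Col4a2 peak at P5, while Lama5, Itga2, Itga3 and Itgb4 are higher at each later passage.

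Collagen IV, the chain pair that forms the network of every basement membrane, rose and fell back. Col4a1 (α1 chain; GRCm38 chromosome 8, 11198423 to 11312826, minus strand) was at 52.1, 52.3 and 40.7 FPKM at P0, 166, 152 and 166 FPKM at P5 and 40.7, 38.1 and 38.5 FPKM at P10. The P5 libraries lay above all others, and P0 and P10 overlapped. The mean at P5 was 3.34 times that at P0 (log2 fold change 1.73, SE 0.09, adjusted p = 3.83e-07 by limma), and P0 to P10 left a small fall (log2 fold change -0.29, SE 0.09, adjusted p = 0.0154). Col4a2 (α2 chain; chromosome 8, 11312805 to 11449287, plus strand) was at 41.4, 35 and 27.6 FPKM at P0, 129, 118 and 129.8 FPKM at P5 and 39.7, 39.1 and 39.4 FPKM at P10. It followed Col4a1, with a P5 mean 3.62 times that at P0 (log2 fold change 1.84, SE 0.12, adjusted p = 1.37e-06) and no call from P0 to P10 (log2 fold change 0.20, SE 0.12, adjusted p = 0.152). From P5 to P10 both fell (log2 fold change -2.02, SE 0.09, adjusted p = 1.75e-07 for Col4a1; log2 fold change -1.64, SE 0.12, adjusted p = 2.73e-06 for Col4a2). The genes lie head to head, with annotated start sites 21 bases apart on opposite strands and overlapping first exons. Col4a5, the α5 chain gene on the X chromosome, was at 3.23, 5.23 and 3.88 FPKM at P0, 4.38, 3.82 and 4.15 FPKM at P5 and 3.28, 3.21 and 3.27 FPKM at P10, P0 overlapping both later passages and P5 lying above P10, and was not called (adjusted p from 0.0807 to 0.908 by limma over the 3 comparisons).

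The sum of the collagen IV genes was 87.2 ± 13.2 FPKM at P0, 291 ± 15.3 at P5 and 81.8 ± 1.77 at P10 (SD, n = 3). Endothelial cells also make collagen IV, and the summed level of 8 endothelial markers was 1.01 to 2.26 FPKM at P0, 14.1 to 22.7 at P5 and 0.894 to 1.26 at P10. Of that sum at P5, most was the angiopoietin receptor Tek (13.2 ± 3.6 FPKM at P5) and Vwf (5.74 ± 0.869 FPKM), while Pecam1 (0.0499 ± 0.0049 FPKM), Cdh5 (0.0542 ± 0.0248 FPKM), Kdr and Stab2 were near 0 and Clec4g was at 0 in the same libraries; the part of endothelial cells in the collagen IV values was not tested. Of 8 hepatocyte markers the sum went from 5856 to 6911 FPKM at P0 to 180.4 to 210.1 at P5 and 75.4 to 80.9 at P10, and their part in the changes from P0 was not tested. For 10 stellate and mesenchymal markers the sum was 60.7 to 76.1 FPKM at P0, 7.52 to 8.39 at P5 and 0.196 to 0.263 at P10, at P0 and P5 mostly Reln (69.2 ± 7.8 FPKM at P0), with Lum at 0 throughout and Dcn at 0.132 ± 0.0952 FPKM at P0 and 0 later.

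The other tested collagens were of different classes. Col18a1, the basement membrane collagen whose end fragment is endostatin, was at 18.8, 18.7 and 17.3 FPKM at P0, 28.9, 28.5 and 28.7 FPKM at P5 and 33.6, 32 and 31.9 FPKM at P10. Each passage stood above the one before without overlap, by 1.57 times to P5 (log2 fold change 0.63, SE 0.05, adjusted p = 5.25e-06) and by a smaller step to P10 (log2 fold change 0.18, SE 0.05, adjusted p = 0.0108). Col20a1, a fibril-associated collagen, was at 0.728, 0.956 and 0.965 FPKM at P0, 5.37, 4.78 and 5.04 FPKM at P5 and 3.71, 3.49 and 3.49 FPKM at P10. All P5 libraries were above the P10 libraries and these above P0 (log2 fold change 1.69, SE 0.07, adjusted p = 9.89e-08, then log2 fold change -0.41, SE 0.07, adjusted p = 0.000776, by limma). Col11a2, a minor fibrillar chain of cartilage, was at 0.146, 0.188 and 0.222 FPKM at P0, 1.11, 0.749 and 0.836 FPKM at P5 and 1.31, 1.13 and 1.22 FPKM at P10. It rose to P5 (log2 fold change 0.68, SE 0.09, adjusted p = 0.000145), and the further step to P10 (log2 fold change 0.23, SE 0.09, adjusted p = 0.0454) was lost when the replicate number was kept as a block (adjusted p = 0.0617). Col16a1, another fibril-associated collagen, was at 2.18, 4.93 and 2.76 FPKM at P0, 1.86, 1.49 and 1.52 FPKM at P5 and 0.432, 0.594 and 0.574 FPKM at P10, with replicate 2 of P0 highest. It fell at both steps and by 1.43 on the log2 scale in all (log2 fold change -1.43, SE 0.19, adjusted p = 7.93e-05). Without P0 replicate 2, the change from P0 to P5 was -0.40 on the log2 scale against -0.66 with it, and was still called (adjusted p = 0.00842, limma). The fibrillar genes of scar tissue were hardly present, with maxima over the 9 libraries of 0.196 FPKM for Col1a1 and 0.131 FPKM for Col3a1. Nor was Col17a1, the transmembrane collagen of hemidesmosomes, above 0.0284 FPKM, and of the other collagen IV chains Col4a3 reached 0.0118, Col4a4 0.0189 and Col4a6 0.0391 FPKM.

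Among laminin α chains, Lama5 prevailed. Lama5 (the α chain of laminin-511 and laminin-521; chromosome 2, 180176373 to 180225859, minus strand) was at 41.1, 43.5 and 39.8 FPKM at P0, 84.6, 84.4 and 84.1 FPKM at P5 and 124, 119.9 and 120.5 FPKM at P10. The 3 passages did not overlap, and the mean at P10 was 2.93 times that at P0 (log2 fold change 1.01, SE 0.05, adjusted p = 1.37e-07, then log2 fold change 0.52, SE 0.05, adjusted p = 9.25e-06, by limma). Lama3, the α3 chain of epithelial laminins, was at 0.133, 0.45 and 0.456 FPKM at P0, 1.69, 1.83 and 2.01 FPKM at P5 and 0.332, 0.376 and 0.325 FPKM at P10, highest at P5. It rose and then fell (log2 fold change 1.09, SE 0.11, adjusted p = 2.23e-05; log2 fold change -1.08, SE 0.11, adjusted p = 2.02e-05), so that P10 and P0 were not told apart (adjusted p = 0.952). Lama4, a chain of vessel and mesenchymal laminins, was at 1.39, 3.16 and 1.71 FPKM at P0, 1.59, 2.12 and 1.55 FPKM at P5 and 2.37, 1.75 and 2.06 FPKM at P10, overlapping throughout and not called.

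Lamb3 (β3 chain; chromosome 1, 193207699 to 193343878, plus strand), which pairs with the α3 chain, was at 8.67, 10.1 and 10.6 FPKM at P0, 34.2, 35.2 and 36.4 FPKM at P5 and 23.6, 22.4 and 21 FPKM at P10. The P5 mean was 3.6 times that at P0 (log2 fold change 1.75, SE 0.07, adjusted p = 9.85e-08), and P10 stood between P5 and P0 without overlap (log2 fold change -0.64, SE 0.07, adjusted p = 5.9e-05). Like Lama3 it rose and then fell, but it remained above P0 at P10 (log2 fold change 1.11, SE 0.07, adjusted p = 5.94e-07, by limma). Per length, Lama3 was the lower of the pair, with 1.85 ± 0.162 FPKM at P5 against 35.3 ± 1.08 for Lamb3 (SD, n = 3).

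The β chains that laminin-511 and laminin-521 use moved apart. Lamb1 (β1; chromosome 12, 31265234 to 31329644, plus strand) was at 11.1, 14.8 and 10.5 FPKM at P0, 7.57, 9.54 and 7.8 FPKM at P5 and 5.33, 5.16 and 4.7 FPKM at P10. The passages did not overlap, and the gene fell at both steps (log2 fold change -0.49, SE 0.12, adjusted p = 0.00685, then log2 fold change -0.61, SE 0.12, adjusted p = 0.00172, by limma). Lamb2 (β2) was at 32.3, 30.3 and 31.6 FPKM at P0, 42, 39.3 and 43.5 FPKM at P5 and 34, 32.9 and 32.4 FPKM at P10. It rose to P5 and returned (log2 fold change 0.39, SE 0.05, adjusted p = 0.000144; log2 fold change -0.32, SE 0.05, adjusted p = 0.000444), with no call from P0 to P10 (adjusted p = 0.221). Lamc1, the γ1 chain common to both trimers, was at 42.4, 31.3 and 33.8 FPKM at P0, 43.8, 46.9 and 48 FPKM at P5 and 43.1, 41.6 and 41.5 FPKM at P10. It rose to P5 (log2 fold change 0.37, SE 0.10, adjusted p = 0.00807), with no call from P5 to P10. The call from P0 to P10 (log2 fold change 0.24, SE 0.10, adjusted p = 0.0454) concerned overlapping groups, was lost with the replicate block (adjusted p = 0.0541), and was lost without P0 replicate 2 (log2 fold change 0.15, adjusted p = 0.144), without P0 replicate 3 (adjusted p = 0.126), without P10 replicate 1 (adjusted p = 0.116), and without either other P10 library or any 1 P5 library (adjusted p from 0.0564 to 0.0853). Without P0 replicate 1 it was 0.36 (adjusted p = 0.000239). By mean FPKM, Lamb1 was at 12.1 and Lamb2 at 31.4 at P0, and at 5.06 and 33.1 at P10.

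**Figure D3:**
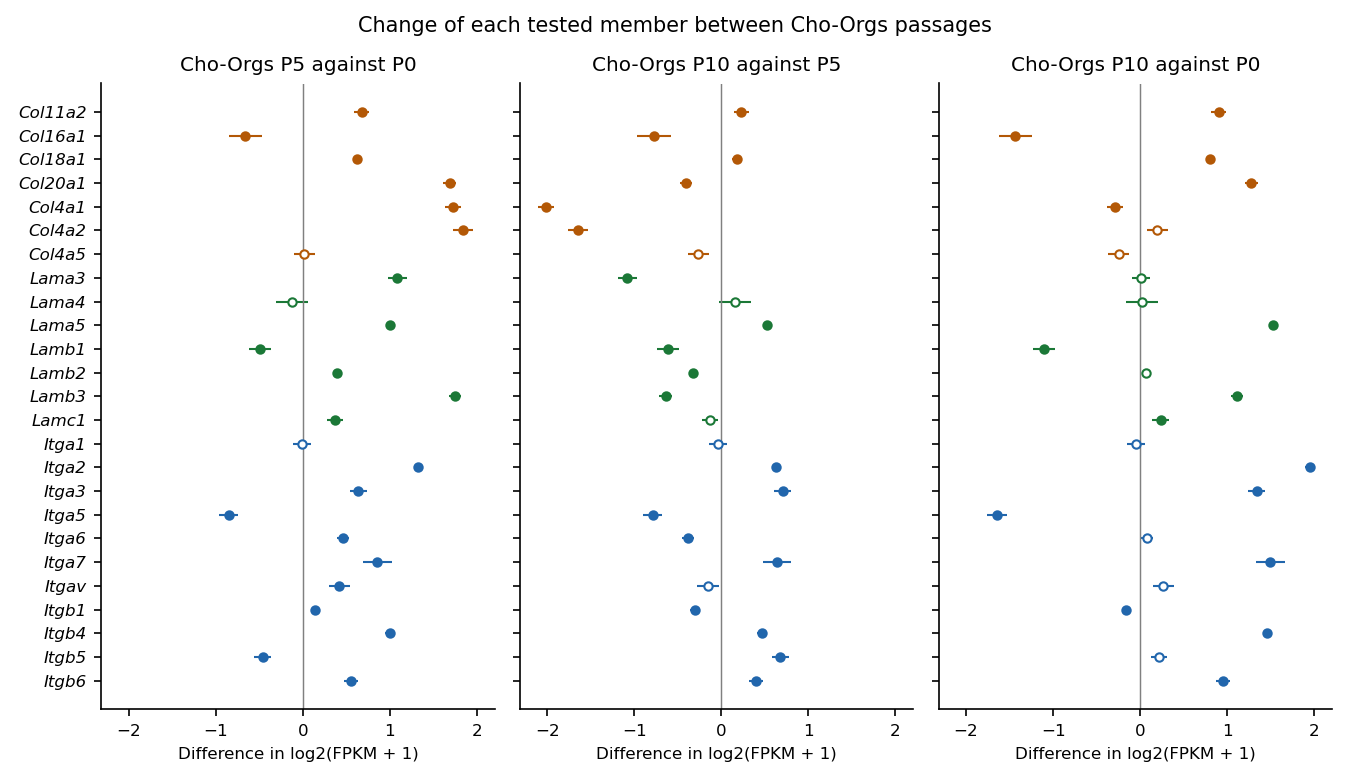
log2 fold changes on the FPKM + 1 scale of tested collagens, laminins and integrins in Cho-Orgs, in panels for P5 against P0, P10 against P5 and P10 against P0. Horizontal bars are standard errors from limma, filled points passed an adjusted p of 0.05 and open points did not; Col4a1 and Col4a2 rise and then show the largest falls, and Itga5 falls at both steps.

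Of the laminin-binding integrin subunits, Itga3, Itgb4 and Itga7 rose at both steps, and Itga6 rose and fell. Itga3 (α3; chromosome 11, 95044474 to 95076801, minus strand) was at 73.3, 95 and 74.1 FPKM at P0, 125, 116 and 135 FPKM at P5 and 211, 205 and 198 FPKM at P10. It was higher at each later passage without overlap and reached 2.53 times the P0 mean at P10 (log2 fold change 1.34, SE 0.10, adjusted p = 1.16e-06). Itgb4 (β4, the hemidesmosome subunit that pairs only with α6; chromosome 11, 115974709 to 116008412, plus strand) was at 24, 26.4 and 26 FPKM at P0, 52.9, 51.3 and 51.5 FPKM at P5 and 75.3, 71.4 and 69.3 FPKM at P10. Its mean rose 2.04 times to P5 (log2 fold change 1.00, SE 0.05, adjusted p = 3.44e-07) and again to P10 (log2 fold change 0.46, SE 0.05, adjusted p = 4.79e-05), with no overlap. Itga6 (α6), its partner, was at 22.1, 18.8 and 21.2 FPKM at P0, 27.6, 31.1 and 27.9 FPKM at P5 and 22.8, 21.6 and 21.2 FPKM at P10. The 3 P5 libraries were highest and those of P0 and P10 overlapped. It rose (log2 fold change 0.46, SE 0.07, adjusted p = 0.000404), fell (log2 fold change -0.39, SE 0.07, adjusted p = 0.00103) and did not differ by call from P0 to P10 (adjusted p = 0.357, limma). The partner subunits α6 and β4 therefore stood at 20.7 ± 1.73 and 25.5 ± 1.26 FPKM at P0 and at 21.8 ± 0.824 and 72 ± 3.08 FPKM at P10 (SD, n = 3). Itga7, the α7 subunit best known from muscle, was at 1.46, 3.38 and 2.08 FPKM at P0, 4.96, 4.75 and 4.78 FPKM at P5 and 8.1, 8.24 and 7.87 FPKM at P10, and rose at both steps, 3.5 times in all (log2 fold change 1.5, SE 0.16, adjusted p = 2.09e-05).

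Itgb1, the β1 subunit that pairs with most of the α subunits here, was among the most abundant members at 130.1, 144 and 138 FPKM at P0, 152, 155 and 148 FPKM at P5 and 123, 120.2 and 124 FPKM at P10. The P5 libraries were highest and the P10 libraries lowest, with no overlap between passages. The fall from P5 to P10 was called (log2 fold change -0.31, SE 0.05, adjusted p = 0.000383, limma), as was that from P0 to P10 (log2 fold change -0.16, SE 0.05, adjusted p = 0.0109). The small rise to P5 (log2 fold change 0.14, SE 0.05, adjusted p = 0.0283) was lost with the replicate block (adjusted p = 0.0505), with median-ratio scaling (adjusted p = 0.327), with only the groups compared (adjusted p = 0.0767), without P0 replicate 1 (adjusted p = 0.0541) or 3 (adjusted p = 0.0506), and without P5 replicate 1 (adjusted p = 0.0736) or 2 (adjusted p = 0.0877). Among α partners that bind collagen, Itga2 (α2; chromosome 13, 114833081 to 114932100, minus strand) was at 14.7, 13.3 and 13.4 FPKM at P0, 36.6, 35.2 and 36.2 FPKM at P5 and 54.9, 57.1 and 56.5 FPKM at P10. This was a rise at both steps without overlap, to 4.07 times the P0 mean (log2 fold change 1.95, SE 0.05, adjusted p = 1.7e-09). Itga1 (α1), the other collagen receptor subunit, was at 1.82, 2.57 and 2.56 FPKM at P0, 2.1, 2.55 and 2.21 FPKM at P5 and 2.11, 2.1 and 2.37 FPKM at P10, overlapping at all passages and not called (adjusted p from 0.702 to 0.957).

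The RGD-binding integrins went different ways. Itga5, the α5 subunit of the fibronectin receptor (chromosome 15, 103344286 to 103366763, minus strand), was at 3.73, 5.45 and 4.38 FPKM at P0, 1.93, 1.84 and 2.35 FPKM at P5 and 0.704, 0.824 and 0.734 FPKM at P10. Each passage lay below the one before (log2 fold change -0.85, SE 0.11, adjusted p = 0.000159, then log2 fold change -0.79, SE 0.11, adjusted p = 0.000208, by limma). Itgb6, the epithelial β6 subunit of a TGF-β activating integrin, was at 2.11, 2.09 and 1.6 FPKM at P0, 3.45, 3.03 and 3.39 FPKM at P5 and 4.77, 4.69 and 4.49 FPKM at P10, rising at both steps (log2 fold change 0.95, SE 0.08, adjusted p = 3.35e-06 over both). Itgav (αv) was at 12.6, 19.4 and 16.7 FPKM at P0, 20.6, 23.2 and 21.6 FPKM at P5 and 19.5, 19.6 and 19.3 FPKM at P10. The P5 libraries lay above all others, and P0 and P10 overlapped. The rise to P5 (log2 fold change 0.42, SE 0.12, adjusted p = 0.0147) was lost without P5 replicate 2 (adjusted p = 0.0545), and without P0 replicate 1, the lowest library, the log2 fold change was 0.26 (adjusted p = 0.0109). Itgb5 (β5, a vitronectin receptor subunit) was at 12.3, 16.5 and 13.8 FPKM at P0, 10.3, 9.75 and 9.94 FPKM at P5 and 17.6, 17.1 and 15.2 FPKM at P10, lowest at P5. It fell and then rose (log2 fold change -0.46, SE 0.10, adjusted p = 0.00253; log2 fold change 0.68, SE 0.10, adjusted p = 0.0002), with P0 and P10 overlapping and no call between them (adjusted p = 0.0622). Itgb8, the other TGF-β activating β subunit, reached at most 0.14 FPKM, and the leukocyte subunit Itgb2 0.207 FPKM. Itgb3bp, which is no integrin, was at 4.07, 2.63 and 3.96 FPKM at P0, 1.87, 1.57 and 1.52 FPKM at P5 and 2.01, 1.64 and 2.09 FPKM at P10 and fell from P0 to P5 (log2 fold change -0.77, SE 0.13, adjusted p = 0.000692).

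From P0 to P10, 3 collagens rose and 2 fell, 4 laminins rose and 1 fell, and 5 integrins rose and 2 fell, against 72.3% of all genes called (41% higher, 31.3% lower, median 0.07). Sums by role differed in their course. The laminin-binding integrins summed to 129 ± 12.4 FPKM at P0, 211 ± 8.43 at P5 and 307 ± 10.7 at P10 (SD, n = 3). The collagen-binding α subunits summed to 16.2 ± 0.321, 38.5 ± 0.435 and 58.6 ± 1.21 FPKM. The RGD-binding integrins were at 37 ± 6.41, 37.1 ± 0.767 and 41.5 ± 1.53 FPKM, whose libraries overlapped between P0 and the later passages.

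Upstream sequences are shown for genes with a shared direction at both steps, namely Lama5 and Itga2, which rose, and Itga5, which fell. Each is the 250 bases before the annotated RefSeq start on the gene's own strand, 5′ to 3′ (GRCm38.p6), chosen among members whose window holds no exon of the GENCODE M21 annotation. Capitals mark GGGCGG or its reverse complement CCGCCC, the core of the GC box.
Lama5: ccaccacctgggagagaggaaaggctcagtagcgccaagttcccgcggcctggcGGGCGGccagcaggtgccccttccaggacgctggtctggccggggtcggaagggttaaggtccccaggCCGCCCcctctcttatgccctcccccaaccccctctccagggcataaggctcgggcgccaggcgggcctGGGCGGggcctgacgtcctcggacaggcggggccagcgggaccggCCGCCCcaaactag
Itga2: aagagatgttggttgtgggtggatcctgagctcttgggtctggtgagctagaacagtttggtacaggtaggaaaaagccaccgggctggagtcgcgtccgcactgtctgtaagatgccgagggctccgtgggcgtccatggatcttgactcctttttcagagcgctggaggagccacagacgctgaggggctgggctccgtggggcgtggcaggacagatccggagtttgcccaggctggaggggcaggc
Itga5: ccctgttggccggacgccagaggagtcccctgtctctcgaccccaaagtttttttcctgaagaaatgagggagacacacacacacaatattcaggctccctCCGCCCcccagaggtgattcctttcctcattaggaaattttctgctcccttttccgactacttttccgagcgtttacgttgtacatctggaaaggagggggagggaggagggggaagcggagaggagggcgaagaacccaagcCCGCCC
These are chr2:180225860-180226109, chr13:114932101-114932350 and chr15:103366792-103367041, all on the minus strand. The Lama5 window held 4 GC box matches, that of Itga5 2 and that of Itga2 none. Of 32851 RefSeq windows of this length, 32.7% held at least 1 such match on either strand. The AP-1 letters TGANTCA were found in none of the windows of the 19 tested members that matched the RefSeq table, and in 6.75% of all windows. For Col4a1 and Col4a2 the upstream window of each lies wholly within exons of the other, since their start sites are so close.

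The genes that fold, cross-link and anchor these proteins were read from fixed lists. Of 12 tested genes of collagen folding, processing and cross-linking, 4 rose and 4 fell from P0 to P5, and 2 rose and 7 fell from P5 to P10. Over all genes tested, 56.6% and 61.5% were called at these steps, so the counts are not read as a trait of the list. The prolyl hydroxylase subunit P4ha1, which modifies collagen chains for folding, went from 26.7 ± 2.24 to 50.1 ± 2.2 and 14.5 ± 0.19 FPKM (SD, n = 3; log2 fold change 0.89, SE 0.06, adjusted p = 2.87e-06, then log2 fold change -1.72, SE 0.06, adjusted p = 6.84e-08, by limma). The collagen chaperone Serpinh1 was at 17.6 ± 8.51, 4.04 ± 0.556 and 0.16 ± 0.0588 FPKM and fell at both steps. The lysyl oxidase Loxl4, a cross-linking enzyme, rose from 0.206 ± 0.109 to 5.65 ± 0.871 and 27.5 ± 1.11 FPKM. P4ha1 thus peaked at P5, as Col4a1 and Col4a2 did, while Serpinh1 and Loxl4 moved in opposite directions throughout.

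Of 12 other basement membrane and matrix glycoproteins, 3 rose and 5 fell from P0 to P5, and 2 rose and 5 fell from P5 to P10. The shares of all genes called were 56.6% and 61.5% at these steps. The counts of this and the next lists are likewise not read as a trait of them. Vitronectin (Vtn), a plasma protein made by hepatocytes, fell first (log2 fold change -5.47, SE 0.14, adjusted p = 5.63e-09), with fibronectin (Fn1; log2 fold change -3.16, SE 0.17, adjusted p = 3.92e-07) and osteopontin (Spp1; log2 fold change -2.17, SE 0.12, adjusted p = 6.86e-07). These 3 are ligands of RGD-binding integrins, and the hepatocyte marker sum above fell in the same comparison; its part in these changes was not tested. Tenascin C (Tnc) rose from P5 to P10 (log2 fold change 1.31, SE 0.08, adjusted p = 7.83e-07). Among 8 other matrix receptors, 3 rose and 3 fell to P5, then 3 rose and 2 fell. The laminin α5 receptor Bcam was at 249 ± 23.4, 621 ± 47.7 and 595 ± 21.7 FPKM (log2 fold change 1.32, SE 0.08, adjusted p = 8.86e-07, limma). Syndecan 1 (Sdc1), a heparan sulphate receptor, rose (log2 fold change 0.64, SE 0.06, adjusted p = 1.13e-05) and then fell (log2 fold change -1.28, SE 0.06, adjusted p = 1.5e-07). Of 16 adhesion adaptors and hemidesmosome plaque genes, 6 rose and 3 fell to P5, then 7 rose and 5 fell. The kindlins, which activate integrins, parted in the first step, with Fermt1 up (log2 fold change 0.80, SE 0.06, adjusted p = 3.21e-06) and Fermt2 down (log2 fold change -0.94, SE 0.12, adjusted p = 0.00012).

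In Pri-Hep and Hep-Orgs, the question was whether organoids differed from the cells they were grown from and whether they changed over passages. No member differed by call in any of 7 comparisons. Of 26 members tested (6 collagens, 7 laminins, 12 integrins and Itgb3bp), limma called 0 for all Hep-Orgs against Pri-Hep, where 0% of the 10986 genes tested were called and 3 members, among 966 of all genes, had an unadjusted p under 0.05. It called 0 for P1 against Pri-Hep (0.0091% of all genes called; unadjusted, 3 members among 911 genes), 0 for P5 against Pri-Hep (0.0091%; 5 among 1184) and 0 for P10 against Pri-Hep (0%; 1 among 730). Between passages it called 0 for P5 against P1 (0% of all genes called; unadjusted, 0 members among 436 genes), 0 for P10 against P5 (0.0273%; 5 among 1266) and 0 for P10 against P1 (0%; 3 among 986). The median log2 fold change of Hep-Orgs against Pri-Hep was 0.04 for collagens, 0.03 for laminins and 0.03 for integrins. Since the libraries of different groups were nearly as alike as those of 1 group, and neither the Pri-Hep nor the Hep-Orgs libraries carried the marker pattern of their label, these counts compare the deposited libraries as labelled.

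Ranked by level over these 12 libraries, Itgb1 led at 172 to 180.2 FPKM (median 175, n = 12), followed by Itga3 at 78.4 to 84 FPKM (median 81.9, n = 12). Next came Lama5 at 51 to 57.7 FPKM (median 55, n = 12), then Lamc1 at 47.8 to 49.9 FPKM (median 49, n = 12). Lamb2 followed at 36.7 to 41.8 FPKM (median 39.4, n = 12) and Col18a1 at 36.6 to 40.9 FPKM (median 38.2, n = 12), whose ranges overlapped. Col18a1 was thus the most abundant collagen, above the overlapping Col4a1 at 16.9 to 19.3 FPKM (median 18.4, n = 12) and Col4a2 at 17.5 to 19.6 FPKM (median 19.1, n = 12), and above Col4a5 at 9.26 to 10.2 FPKM (median 9.83, n = 12). In Cho-Orgs the means of Col4a1 and Col4a2 stood above that of Col18a1 at every passage instead. Itgb4 was at 22.5 to 24.6 FPKM (median 23.9, n = 12), Itgav at 20.8 to 23.4 FPKM (median 21.3, n = 12), Itgb5 at 14.7 to 17.5 FPKM (median 16.7, n = 12), Itga2 at 12.7 to 14 FPKM (median 13.4, n = 12) and Lamb3 at 10.7 to 12.2 FPKM (median 11.6, n = 12). Itga6, at 9.997 to 11.1 FPKM (median 10.5, n = 12), was below its partner Itgb4 in every library. The low members Lama3, Itga5 and Col20a1 were at 1.22 to 1.54 FPKM (median 1.42, n = 12), 1.86 to 2.42 FPKM (median 2.11, n = 12) and 1.75 to 2.36 FPKM (median 1.98, n = 12).

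**Figure D4:**
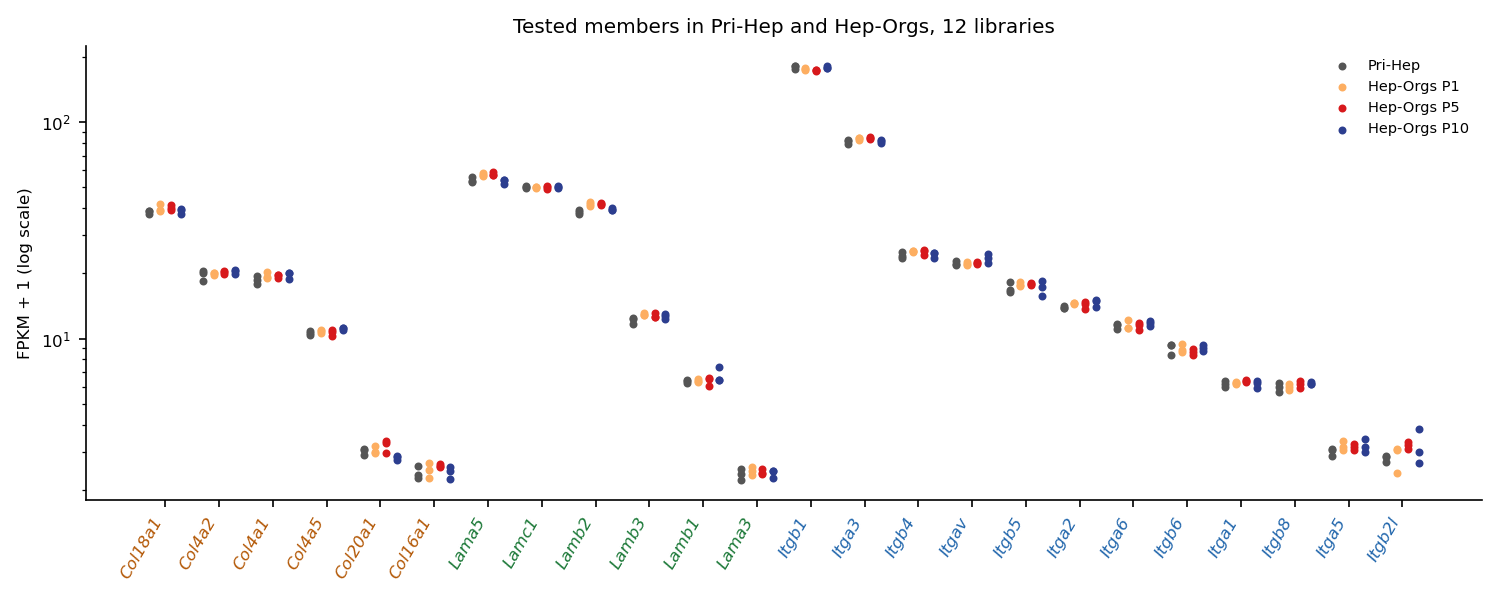
FPKM of tested collagens, laminins and integrins in Pri-Hep and in Hep-Orgs at P1, P5 and P10, 3 libraries a group, as FPKM + 1 on a log axis, with gene names coloured by family. Each point is a library; the 4 groups lie close together for each gene, from Itgb1 at 172 to 180.2 FPKM down to genes near 1 FPKM.

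On 2 laminin genes, limma and a count model differed. Lamb2 was at 36.7, 37.4 and 38.4 FPKM in Pri-Hep, 40.8, 41.8 and 39.8 at P1, 40.9, 40.4 and 41.2 at P5 and 39.1, 38.1 and 38.1 at P10. The P1 and P5 libraries lay above those of Pri-Hep, with P10 overlapping. Limma did not call it for P5 against Pri-Hep (log2 fold change 0.12, SE 0.02, adjusted p = 0.174), but limma-voom on the fragments recovered from the FPKM did (log2 fold change 0.12, SE 0.03, adjusted p = 0.0227), and likewise for P1 (log2 fold change 0.12, SE 0.02, adjusted p = 0.0263). Lama5 was at 54.9, 51.9 and 52.2 FPKM in Pri-Hep, 56.2, 57.2 and 55.1 at P1, 55.8, 57.7 and 56 at P5 and 53.2, 51 and 53 at P10. All P10 libraries lay below those of P5 and P1 and overlapped those of Pri-Hep. The step from P5 to P10 was log2 fold change -0.11, SE 0.03, adjusted p = 0.229 by limma and log2 fold change -0.12, SE 0.02, adjusted p = 0.0182 by limma-voom, which also called P10 against P1 (adjusted p = 0.0493). The percentages of all genes called above belong to limma, so the limma-voom calls are given without such a background.

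Some members were listed at clear levels in one table and near 0 in another. Itgb8 was at 4.68 to 5.35 FPKM (median 5.18, n = 12) in Pri-Hep and Hep-Orgs, against at most 0.14 FPKM in Cho-Orgs. The leukocyte β subunit homologue Itgb2l was at 1.39 to 2.84 FPKM (median 2.02, n = 12) and at 0 in all Cho-Orgs libraries. In the other direction, Itga7 was at 0.254 to 0.475 FPKM (median 0.347, n = 12) against 2.31 to 8.07 FPKM as passage means in Cho-Orgs, and Lama4 at 0.173 to 0.289 FPKM (median 0.218, n = 12) against 1.75 to 2.08 FPKM. These tables were normalized separately and no test was made between them. Of 8 macrophage markers, Adgre1, Clec4f, Cd5l and Vsig4 were near 0 in the Pri-Hep and Hep-Orgs libraries, in which the summed macrophage level of 485 to 528 FPKM came mostly from Cd14.

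The Smart-Seq libraries asked how the 3 organoid shapes differ. Each shape was 1 library, so there is no replicate check, no p-value can be given and the values compare these libraries rather than the shapes. A gene was counted where its FPKM + 1 differed at least 2-fold and 1 of the pair reached 1 FPKM. Against the round-like library, the grape-like library was higher for 13 of 22 collagens and lower for 0, higher for 3 and lower for 3 of 10 laminins, and higher for 11 and lower for 5 of 21 integrins. Of all genes, 22.1% passed this fold (13.1% higher and 8.95% lower), with a median log2 ratio of -0.13. Between intermediate and round-like, 1 collagen was higher and 2 lower of 18, 1 laminin was lower of 7, and 0 of 16 integrins passed, against 6.69% of all genes (4.03% higher, 2.66% lower). Of the calls over all genes in that pair, 60.2% were higher, and 74.9% with median-ratio scaling. Grape-like against intermediate gave 15 of 22 collagens higher and 0 lower, 4 laminins higher and 3 lower of 10, and 9 integrins higher and 4 lower of 20, against 17.3% of all genes (9.94% higher, 7.32% lower).

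Fibrillar and type VI collagens were among those higher in the grape-like library. In the order grape-like, intermediate and round-like, Col3a1, the collagen III of loose and scar tissue, was at 502, 120.4 and 140.3 FPKM. Its 95% exact Poisson intervals, which cover counting error only, were 500.2 to 505 FPKM in the grape-like and 139 to 142 FPKM in the round-like library. The collagen I chains Col1a1 and Col1a2 were at 118, 34.5 and 30.8 FPKM and 194, 50.5 and 42.8 FPKM, with a log2 ratio of 2.15 for Col1a2 between grape-like and round-like. The grape-like library was highest for each, and the other 2 lay close together. Col5a2, a collagen V chain that starts fibrils, was at 45.8, 9.9 and 11.2 FPKM. The type VI chains, which form beaded filaments around cells, were at 197, 43.6 and 48.5 FPKM for Col6a1, 89, 22.3 and 20.9 FPKM for Col6a2 and 16, 2.88 and 1.85 FPKM for Col6a3. Col15a1, a basement membrane collagen related to Col18a1, had the largest log2 ratio among collagens, 2.92, at 10.2, 1.28 and 0.481 FPKM, followed by Col6a3 at 2.58.

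Of collagen IV, the chains Col4a1 and Col4a2 departed from that order. Col4a1 was at 61, 17.1 and 55.4 FPKM and Col4a2 at 35.9, 10.1 and 33.6 FPKM. For both, grape-like and round-like were close (log2 ratios 0.14 and 0.09) and the intermediate library was low, at a log2 ratio of -1.64 and -1.64 against round-like. Col4a5 did not share this, at 8.6, 6.2 and 4.85 FPKM, highest in grape-like and past 2-fold in no pair. Col18a1 was instead highest in the intermediate library, at 15.4, 24.1 and 12.6 FPKM. Col6a5, a further type VI chain, was at 2.24, 4.02 and 0.306 FPKM and was the collagen counted higher in intermediate than in round-like (log2 ratio 1.94).

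Laminins split by chain. Lama5 and Lamb3 were lowest in the grape-like library, with Lama5 at 6.81, 17.5 and 26.9 FPKM (log2 ratio -1.83 between grape-like and round-like) and Lamb3 at 2.32, 13 and 11.8 FPKM (-1.94). Lamb3 was within 2-fold between intermediate and round-like. Lamb2 was also lowest in grape-like, at 14.8, 20.2 and 23.8 FPKM, but passed 2-fold in no pair. Lama3 ran the other way at a low level, with 0.4003, 0.322 and 0.0396 FPKM. Lamb1, with 35.5, 10.04 and 11.4 FPKM, was highest in grape-like (log2 ratio 1.56), as were the low chains Lama2, with 1.6, 0.219 and 0.215 FPKM, and Lamc3, with 1.62, 0.196 and 0.199 FPKM. Lama4 was at 13.3, 3.37 and 6.64 FPKM, short of 2-fold between grape-like and round-like but past it between grape-like and intermediate. Lamc1, at 32.6, 26.5 and 57.7 FPKM, was highest in round-like, and was the laminin counted lower in intermediate than in round-like (log2 ratio -1.09).

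Integrins split in the same manner. Of the laminin-binding subunits, 3 were lowest in the grape-like library, with Itgb4 at 3.71, 12.8 and 22.4 FPKM (log2 ratio -2.31 between grape-like and round-like), Itga3 at 11.5, 41.5 and 44 FPKM (-1.85) and Itga6 at 5.4, 11 and 18.8 FPKM (-1.63). Itgb6 was at 0.447, 2.99 and 5.54 FPKM (-2.18) and Itga2 at 5.76, 14.2 and 14.1 FPKM (-1.16). These are the 5 integrins counted lower. The remaining laminin-binding subunit, Itga7, was highest in grape-like at 1.18, 0.242 and 0.116 FPKM, which is short of 2-fold on the FPKM + 1 scale. The β2 integrins of leukocytes were highest in grape-like. Itgb2, the common β2 subunit, was at 68.4, 25 and 13 FPKM (log2 ratio 2.31), with its partners Itgal of leukocytes at 44.7, 14.4 and 11.6 FPKM and Itgam of myeloid cells at 32, 14.1 and 7.84 FPKM. Itga8, which mesenchymal cells express, was at 12.2, 3.27 and 2.29 FPKM (2.00), and Itga9 at 13.4, 4.33 and 3.02 FPKM (1.84). Itgb1, at 172, 118 and 125 FPKM, passed 2-fold in no pair.

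**Figure D5:**
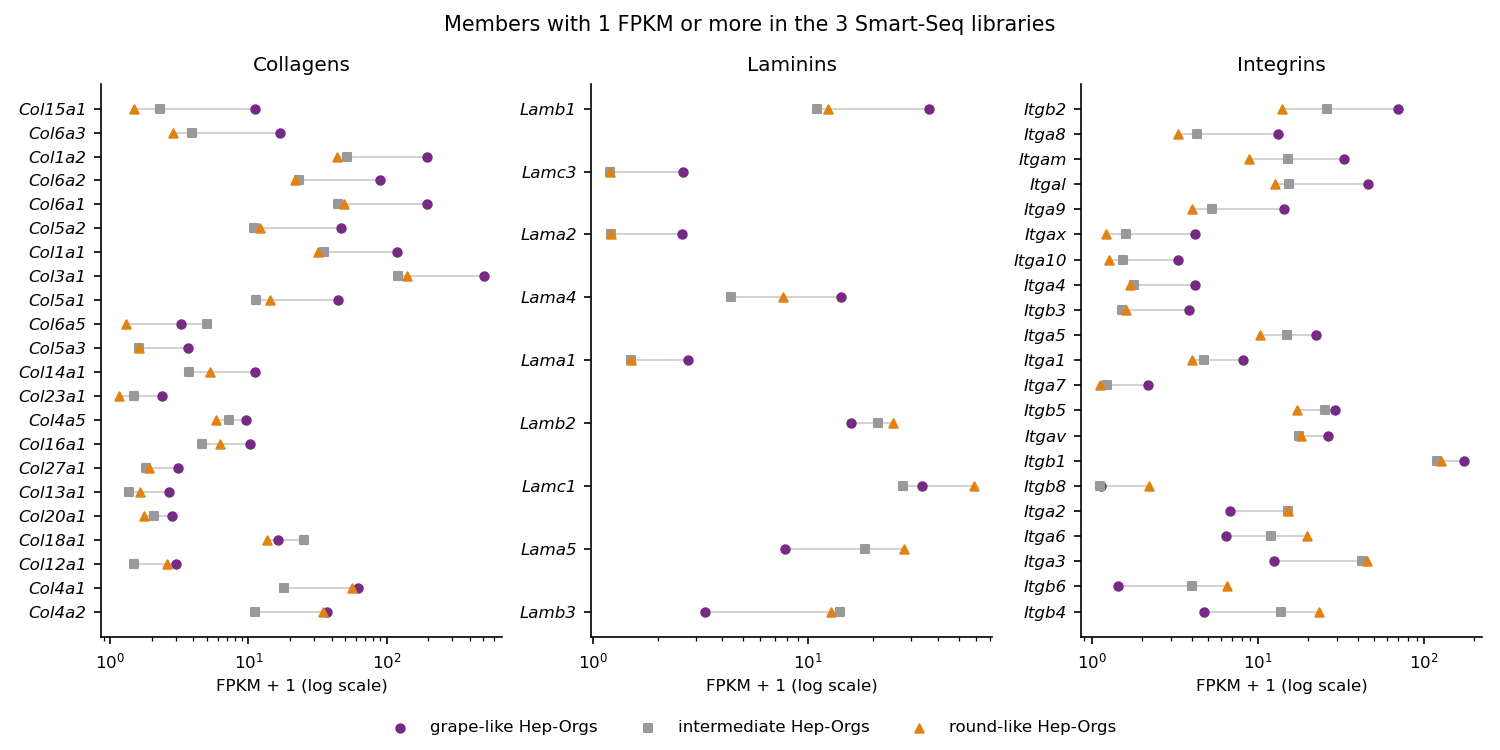
FPKM of collagens, laminins and integrins in the 3 Smart-Seq libraries, picked from Hep-Orgs at P0 by shape, as FPKM + 1 on a log axis, 1 library each and no error. Grey lines span the 3 values of a gene. Col1a1, Col1a2, Col3a1, Col5a2, Col6a1, Col6a2, Col6a3, Itgb2, Itgal and Itgam are highest in the grape-like library, while Lama5, Lamb3, Itga3, Itgb4 and Itgb6 are lowest there.

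Markers of other cells moved with these genes. Over all genes, 13.1% were at least 2-fold higher in grape-like than in round-like and 8.95% lower, beside which the counts below stand. The summed level of 10 stellate and mesenchymal markers was 1035 FPKM in grape-like, 269 in intermediate and 185 in round-like, with Dcn at 658 FPKM in grape-like, and 8 of 9 of them were at least 2-fold higher in grape-like than in round-like. For 8 macrophage and Kupffer markers the sums were 8612, 3032 and 1744 FPKM, 7 of 8 higher in grape-like. For endothelial markers they were 74.7, 30.4 and 13 FPKM, with 7 of 7 higher in grape-like. Cholangiocyte markers ran the other way, at 54.2, 486 and 689 FPKM, 6 of 7 lower in grape-like, while 6 of 8 hepatocyte markers were higher there, at sums of 5451, 8976 and 1277 FPKM. The part of these cells in the collagen, laminin and integrin values was not tested. Of 15 genes of collagen folding and cross-linking, 11 were at least 2-fold higher in grape-like than in round-like and 0 lower, and of 14 other basement membrane and matrix glycoproteins 8 were higher and 3 lower. Of 9 other matrix receptors 1 was higher and 3 lower, and of 16 adhesion adaptors 4 were higher and 1 lower.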

How the data were processed

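Bulk poly(A) RNA-seq was deposited for Pri-Hep and Hep-Orgs (12 libraries) and for Cho-Orgs (9 libraries), with full-length amplified Smart-Seq for 3 libraries. According to the submitters' processing notes, reads were assigned to mm10 genes with featureCounts 2.0.3 and edgeR 3.40.2 was used; the aligner is not given in the sources used here. The authors deposited FPKM per gene, in 3 tables normalized separately, which were not fitted together. Columns of other samples numbered 0. In the first table at least 99.96% of values were whole fragments within 0.05, which gave the fragments per library; the depths of the other tables were estimated from the spacing of low values. Precision is limited by 3 libraries a group.

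Symbols were matched by rule, and genes with at least 1 FPKM in at least 3 libraries were tested with limma 3.58.1 (R 4.3.3; lmFit, eBayes with trend) on log2(FPKM + 1), two-sided, with Benjamini-Hochberg adjustment over all genes of a table and a threshold of 0.05. Smart-Seq libraries were compared by a 2-fold rule with no test, with 95% exact Poisson intervals. The fits were also run on simulated data with known changes in few genes. Most genes were called between Cho-Orgs passages, so those runs do not test the fit in that setting. Alternatives were a pseudocount of 0.1, no filter, a mean of at least 5 FPKM, TPM, median-ratio scaling, no trend, the replicate number as a block, only the groups compared, a log2 fold of at least 1, leaving out each library, and limma-voom on recovered fragments. The study names the replicate numbers as 3 mice, so the block is given where it changed a call. Deviations of same-numbered libraries from their group means were hardly correlated (median r -0.00626 over 9 Cho-Orgs pairs and -0.00155 over 18 pairs of the first table). Of 83 members, 82 had the coordinates of GENCODE M21. Upstream windows were taken from RefSeq (GRCm38.p6), where 60 members matched. Genes were named with statistics where they passed the threshold (up to 10 a direction and family) or belonged to the laminin-332, collagen IV and laminin-, collagen- or RGD-binding groups, with at most 4 a pathway list. One laminin gene is counted in the totals but not reported here. The members and lists were chosen with earlier results of these data known.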

Additional observations from a re-analysis of the deposited data

Results flagged for a closer look

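Over the 9 Hep-Orgs libraries, 26 members were examined for a library far from the others (gap to the nearest library over the whole range above 0.493), which chance passes in about 1 of 20. There were 3, all at P10. Itga1 was low in P10 replicate 1 at 4.90 FPKM, with the next library at 5.18 and the highest at 5.43 FPKM. Lamb1 was high in the same library at 6.40 FPKM, against 5.54 for the next and 5.02 for the lowest. Itgb5 was low in P10 replicate 3 at 14.7 FPKM, against 16.3 and 17.5 FPKM. None of these genes was called in a comparison of that table by limma, where leaving out any 1 library also gave 0 calls.

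Of 24 members tested in both tables, 4 had P10 above P5 in one of Cho-Orgs and Hep-Orgs and below it in the other, the libraries of P5 and P10 not overlapping in either. The log2 fold change was 0.0633 in Hep-Orgs and -0.26 in Cho-Orgs for Col4a5, -0.0498 and 0.70 for Itga3, 0.0436 and -0.31 for Itgb1, and -0.11 and 0.52 for Lama5. By limma none of the 4 was called in Hep-Orgs (adjusted p from 0.229 to 0.488), and Col4a5 was not called in Cho-Orgs either (adjusted p = 0.0807). The difference between the tables was not tested, since they were normalized separately. The share of all genes that meet the same rule was not computed, so the 4 are not read as a trait of these members.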

How the results depend on the processing

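For the called members of Cho-Orgs, no direction reversed under the alternatives run. Hep-Orgs and Smart-Seq results were compared by counts only, so their directions were not checked. Without the filter on low values, 13 collagens were called for P5 against P0, 13 collagens and 12 integrins for P10 against P0 of Cho-Orgs. With a mean of at least 5 FPKM, collagen calls were 3, 3 and 2 for P5 against P0, P10 against P5 and P10 against P0. With a log2 fold change of at least 1 they were 3, 2 and 2, laminin calls 3 for P5 against P0 and 1 for P10 against P5, and integrin calls 1 and 0 for the same steps. More or fewer genes tested, or a stricter rule, give these by construction. The share of all genes called or past 2-fold under each alternative is not given here. Counts under the alternatives are therefore not read as a trait of the members. Limma-voom called 1 member each for Hep-Orgs P1 and P5 against Pri-Hep and for P10 against P5 and against P1. The cause was not tested, and the share of all genes called by limma-voom is not given here. For intermediate against round-like, a pseudocount of 0.1 gave 5 collagens and 1 integrin past 2-fold, TPM 1 integrin, and median-ratio scaling 1 integrin and 0 laminins. Leaving out 1 library gave 4 to 7 collagens, 4 to 7 laminins and 7 to 10 integrins called over the Cho-Orgs comparisons, and 0 members in the first table. With the replicate block, 60 of 63 calls of single members were kept; those lost were Lamc1 (P10 against P0, adjusted p = 0.0541), Col11a2 (P10 against P5, adjusted p = 0.0617) and Itgb1 (P5 against P0, adjusted p = 0.0505) by limma, and no other call changed. Col11a2 was also lost with a pseudocount of 0.1, in TPM, and without P0 replicate 3, P5 replicate 2 or 3, or any 1 P10 library (adjusted p up to 0.158), and Col4a1 for P10 against P0 without P10 replicate 2 (adjusted p = 0.0509). Lamc1 was lost without the filter, with median-ratio scaling, without the trend and with only the groups compared, and Itgb1 (P5 against P0) with median-ratio scaling and with only the groups compared. Depth limits the low collagens, and 1 library a shape limits the Smart-Seq values.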
